A study of Mus musculus with 24 samples.

Results

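The 43 glutamate and GABA receptor genes of the mouse autosomes were examined for peaks of 3 autism-associated transcriptional regulators (TRs) in embryonic cortex. The genes were taken from GENCODE vM21 by symbol, as the protein-coding genes on chromosomes 1 to 19 named Gria, Grik, Grid, Grin, Grm, Gabr and Gabbr with a subunit number or letter. They were 43 of 20807 protein-coding genes on those chromosomes, and the rule used names only. They comprised 3 AMPA, 5 kainate, 2 delta and 7 NMDA receptor subunits, 8 metabotropic glutamate receptors, 11 alpha, beta and gamma subunits of the GABA-A receptor, 5 other GABA-A subunits (delta, pi and rho) and 2 GABA-B subunits.

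The libraries came from cortex of wild-type mice on a CD1 background, without treatment, at 2 embryonic stages written E15.5 and E18.5 for the day of gestation. Antibodies to ARID1B (part of the BAF remodeler), FOXP1 (a forkhead factor) or TCF7L2 (a factor of the Wnt pathway) precipitated chromatin for 12 libraries, with 12 libraries of input chromatin as controls. The 24 libraries thus held 2 biological replicates of each kind. The third protein is called TCF4 in the sample labels, a name that TCF7L2 shares with another gene, and the antibody listed in the study is against TCF7L2. There is 1 deposited peak list for each TR and stage, so none of the values below carries a replicate error and no test was possible. The study states that replicates were merged and peaks called again, and the lists were taken to be these, but GEO attaches each to replicate 1 and the files do not state it. Whole cortex was used, so binding in few cells and weak binding in many cells cannot be told apart.

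Glutamate excites cortical neurons through AMPA, kainate and NMDA receptors, which are cation channels assembled from several subunits, and through metabotropic receptors, which signal through G proteins. GABA inhibits mature neurons through GABA-A receptors, which are chloride channels assembled from several subunits, and through GABA-B receptors, which are coupled to G proteins. The subunits present in a neuron change during development, and several members of both families are used mainly outside the cortex, among them Gabra6 in cerebellar granule cells and Grm6 and the rho subunits in the retina.

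The promoter of a gene was taken as 2000 bp of sequence before each of its transcription start sites (TSSs), and a gene had a promoter peak if at least 1 base of a peak lay there. Fold enrichment is the ratio of reads at a peak's summit to the background, with a pseudocount of 1 on both, as the authors' peak caller gave it. Its size depends on the antibody and depth of a list, so genes were ranked within each list. A percentile states the share of all genes with a promoter peak in the same list that a gene exceeds.

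Reference sequences are shown for the strongest receptor promoters, for a promoter summit with few CpGs, for the strongest intron peak and for starts without a peak, as examples of their CpG dinucleotides, which are in capitals. All are written 5′ to 3′ on the gene's strand. Sequences at starts are the 250 bases before the RefSeq start in GRCm38.p6, and those at peaks are 200 bases centred on the summit in GRCm38. Gria2 (chr3:80802836-80803085, minus strand) and Gabbr1 (chr17:37045716-37045965, plus strand) had the highest median promoter fold enrichments of all members and held 19 and 16 CG dinucleotides.
Gria2: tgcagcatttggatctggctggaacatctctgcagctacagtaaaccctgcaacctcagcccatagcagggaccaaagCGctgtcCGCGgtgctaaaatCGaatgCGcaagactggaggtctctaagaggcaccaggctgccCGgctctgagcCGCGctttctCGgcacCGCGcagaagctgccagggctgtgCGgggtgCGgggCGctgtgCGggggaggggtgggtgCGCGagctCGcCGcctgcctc
Gabbr1: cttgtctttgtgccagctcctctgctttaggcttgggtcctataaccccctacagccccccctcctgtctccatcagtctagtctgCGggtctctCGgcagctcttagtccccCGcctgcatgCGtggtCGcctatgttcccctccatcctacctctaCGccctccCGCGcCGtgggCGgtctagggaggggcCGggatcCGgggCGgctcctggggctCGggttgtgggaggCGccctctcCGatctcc
The FOXP1 summit of Grik4 at E18.5 (chr9:42944672-42944871, minus strand) lay 279 bp upstream of a TSS among 16 CG dinucleotides. The FOXP1 summit of Gabra2 at E15.5 (chr5:71095950-71096149, minus strand) lay 201 bp upstream of a TSS among 13.
Grik4 promoter summit: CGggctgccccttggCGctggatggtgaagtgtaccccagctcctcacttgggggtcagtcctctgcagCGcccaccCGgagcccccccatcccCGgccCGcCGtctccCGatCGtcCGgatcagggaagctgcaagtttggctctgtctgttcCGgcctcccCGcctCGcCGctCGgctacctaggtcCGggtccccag
Gabra2 promoter summit: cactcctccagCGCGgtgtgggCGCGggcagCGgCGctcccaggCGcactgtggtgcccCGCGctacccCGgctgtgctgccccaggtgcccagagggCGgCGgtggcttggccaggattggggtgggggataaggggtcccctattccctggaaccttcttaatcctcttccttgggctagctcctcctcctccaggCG
Promoter summits were not all rich in CG dinucleotides, as the TCF7L2 summit of Grin2d at E18.5 (chr7:45867149-45867348, minus strand) held 5.
Grin2d promoter summit: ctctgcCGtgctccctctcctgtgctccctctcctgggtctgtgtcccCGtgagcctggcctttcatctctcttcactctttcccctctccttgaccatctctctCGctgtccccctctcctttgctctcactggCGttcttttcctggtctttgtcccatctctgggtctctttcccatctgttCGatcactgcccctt
The highest peak of any receptor gene lay instead in an intron of Gabra2 (chr5:70995688-70995887, minus strand), where the sequence held 5 CG dinucleotides.
Gabra2 intron summit: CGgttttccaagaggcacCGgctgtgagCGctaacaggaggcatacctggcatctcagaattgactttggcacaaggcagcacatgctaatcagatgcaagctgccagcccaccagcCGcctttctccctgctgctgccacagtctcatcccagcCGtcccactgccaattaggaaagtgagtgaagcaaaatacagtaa
The starts of Gabra6 (chr11:42321073-42321322, minus strand) and Grm6 (chr11:50850435-50850684, plus strand) had no promoter peak in any list and held 2 and 4 CG dinucleotides.
Gabra6: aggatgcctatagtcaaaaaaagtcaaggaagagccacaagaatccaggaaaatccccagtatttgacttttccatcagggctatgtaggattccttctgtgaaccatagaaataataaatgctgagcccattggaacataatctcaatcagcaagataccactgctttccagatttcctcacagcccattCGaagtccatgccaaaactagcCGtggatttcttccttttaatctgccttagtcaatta
Grm6: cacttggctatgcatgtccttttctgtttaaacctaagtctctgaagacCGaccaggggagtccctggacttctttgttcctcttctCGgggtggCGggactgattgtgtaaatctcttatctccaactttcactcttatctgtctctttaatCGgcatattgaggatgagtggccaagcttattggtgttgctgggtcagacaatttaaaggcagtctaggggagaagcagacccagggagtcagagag

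Receptor genes had a promoter peak more often than all genes in each list, and the peaks were of low fold enrichment. At the earlier stage, 35 of the 43 had an ARID1B promoter peak, beside 60.9% of all protein-coding genes, 36 a FOXP1 peak, beside 63.4%, and 30 a TCF7L2 peak, beside 59.1%. At the later stage, the counts were 32 for ARID1B, beside 59.4%, 32 for FOXP1, beside 56.7%, and 36 for TCF7L2, beside 63.0%. All 3 TRs had a promoter peak at 30 receptor genes at E15.5, beside 57.4% of all genes, and at 29 at E18.5, beside 54.9%. In all 6 lists together, 26 receptor genes were bound (60.5%), beside 53.9% of all genes, and 6 genes were bound in no list (14%), beside 34.3%. Receptor genes had a median of 4 distinct TSSs and all genes 3, and more TSSs give a gene more promoter sequence. What part this had in the counts was not tested.

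Among strong peaks alone, the share of receptor genes with a promoter peak was well below that of all genes for ARID1B at both stages, TCF7L2 at E15.5 and FOXP1 at E18.5, and near it for FOXP1 at E15.5 and TCF7L2 at E18.5. With a −log10 p of at least 15, 3 of the 43 receptor genes (6.98%), among them Gria2 and Gabbr1, had promoter peaks in all 6 lists, beside 34.4% of all genes. Receptor genes with such a peak numbered 10 (23.3%) for ARID1B, beside 45.3% of all genes, 23 (53.5%) for FOXP1, beside 56.6%, and 12 (27.9%) for TCF7L2, beside 46.6%, at E15.5. At E18.5, such genes numbered 12 (27.9%) for ARID1B, beside 42.2%, 6 (14.0%) for FOXP1, beside 43.7%, and 20 (46.5%) for TCF7L2, beside 52.6%. No such peak in any list was found at 17 receptor genes (39.5%), near the 41.7% of all genes. A given fold reaches a higher −log10 p in a deeper list, and the FOXP1 list at E18.5 was the shallowest.

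The median fold enrichment at receptor promoters was below that of all genes with a promoter peak in each of the 6 lists. ARID1B medians were 3.84 (E15.5) and 4.21 (E18.5), beside 5.26 and 5.75 over all genes with a peak. FOXP1 showed 5.44 and 5.34, beside 10.8 and 8.80, and TCF7L2 4.21 and 4.65, beside 6.5 and 6.68. The median percentile of the receptor genes lay between 11.6 (TCF7L2, E15.5) and 19 (TCF7L2, E18.5). Of 36 receptor genes with a FOXP1 peak at E15.5, 1 lay above the median of all genes, and the other lists had between 2 and 6 such genes. A single value, that of Gria2 for ARID1B at E15.5, exceeded the 90th percentile. The plot of ranks within each list shows how far the members sit toward the low end.

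**Figure D1:**
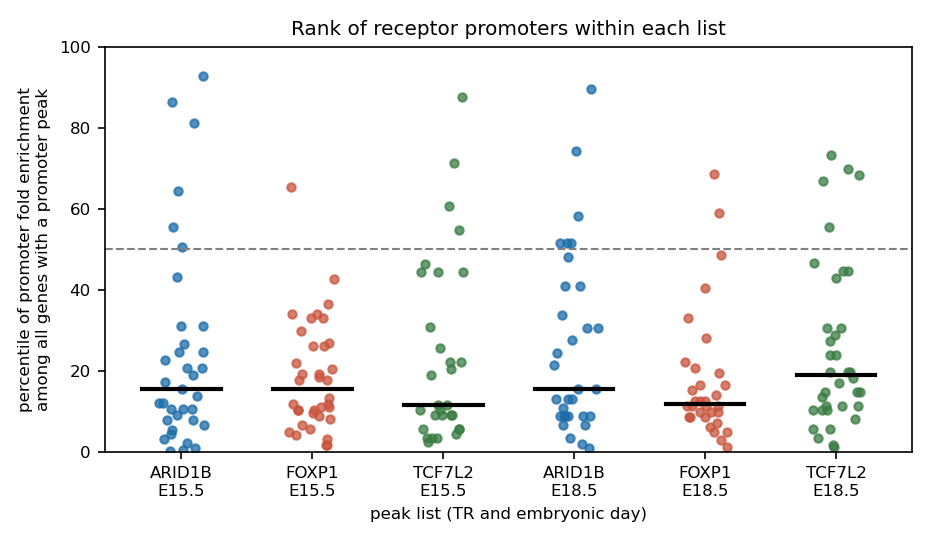
Percentile of each receptor gene's promoter fold enrichment among all genes with a promoter peak in the same list (points, spread sideways for legibility), for 6 peak lists of 3 TRs at 2 stages. Black bars are the medians of the members with a peak, between 11.6 and 19, and the dashed line is the median of all genes with a peak.

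AMPA receptor subunits carry most fast excitation, and all 3 autosomal members had promoter peaks in all 6 lists. Gria2, whose edited subunit keeps calcium out of the channel, had the highest median fold enrichment of all receptor genes (8.64, median percentile 80.4). Its values for ARID1B, FOXP1 and TCF7L2 were 8.01, 12.7 and 9.01 at E15.5, followed by 8.28, 9.39 and 8.10 at E18.5. It was the highest member in 5 of the lists, and Gabbr1 was higher for FOXP1 at E18.5. Gria4 had the lowest median of this class (4.69), with 4.19, 4.56 and 5.15 at E15.5, followed by 5.33, 4.82 and 4.27 at E18.5. Gria2 was higher than Gria4 and Gria1 in every list, and Gria1 was lowest for TCF7L2 at E15.5 (4.00).

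All 5 kainate receptor subunits were bound in all 6 lists as well. Grik2, a channel-forming subunit, had the highest median (6.66), with 7.13, 8.61 and 6.19 at E15.5, followed by 5.75, 5.85 and 7.77 at E18.5 for ARID1B, FOXP1 and TCF7L2. Grik1 had the lowest (4.13), with 4.10, 3.80 and 4.21 at E15.5, followed by 3.09, 4.68 and 4.16 at E18.5. At Grik4, ARID1B reached 3.75 and 3.79 (percentiles 13.7 and 8.75) and FOXP1 7.47 and 8.06 (percentiles 26.9 and 40.4), on scales that differ between the antibodies. At Grik5, the summits lay 617 to 882 bp upstream of the nearest TSS, and in 5 of the 6 lists the peak also overlapped the promoter of Zfp574.

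Both delta receptor subunits, which bind glycine and D-serine and organize synapses in the cerebellum, were bound in all 6 lists. Grid1 had fold enrichments of 4.37, 7.97 and 4.94 at E15.5, followed by 5.05, 5.41 and 5.04 at E18.5 for ARID1B, FOXP1 and TCF7L2. Within the lists, Grid1 ranked between percentile 12.6 (FOXP1, E18.5) and 33.7 (ARID1B, E18.5).

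Among NMDA receptor subunits, 4 of 7 were bound in all 6 lists, and they included the obligatory subunit Grin1 and the embryonic cortical subunit Grin2b. Grin1 had the highest median of the class (5.48), with 4.01, 7.34 and 4.73 at E15.5, followed by 4.49, 7.47 and 6.24 at E18.5 for ARID1B, FOXP1 and TCF7L2. The ARID1B value at E15.5 came from a peak at the start of a non-coding Grin1 transcript, over 14 kb from the others. Grin2b was close to Grin1, with a median of 5.45 and a range of 4.91 to 7.34. By median percentile, Grin2b (28.3) ranked above Grin1 (23.7). Grin3b was bound only in the ARID1B list at E15.5 (3.04), with its summit 1224 bp upstream of the TSS. A FOXP1 peak of 3.16 lay 230 bp downstream of it at E15.5.

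Grin2c and Grin2d, subunits used mainly outside the cortex or later in life, were each missing from lists at E18.5. Grin2c had 2.77, 3.54 and 3.68 at E15.5 for ARID1B, FOXP1 and TCF7L2, and at E18.5 only a TCF7L2 peak (3.94). Grin2d had 3.21, 3.16 and 3.68 at E15.5, 3.79 for ARID1B and 3.94 for TCF7L2 at E18.5, and no FOXP1 peak there. The strongest ARID1B promoter peak of Grin2d at each stage also overlapped the promoter of Kdelr1. A FOXP1 peak of 7.77 lay 427 bp downstream of a Grin2d TSS at E18.5, just outside the promoter as defined here.

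The metabotropic receptors ranked low and were the class with the most glutamate receptor genes missing from lists. Of 8 genes, 4 (Grm2, Grm5, Grm7 and Grm8) were bound in all 6 lists. Grm5, a postsynaptic receptor of cortical neurons, had the highest median of the class (4.30), with 3.39, 4.81 and 3.47 at E15.5, followed by 4.77, 5.12 and 3.83 at E18.5 for ARID1B, FOXP1 and TCF7L2. By median percentile, Grm7 (11.8) and Grm8 (11.1) ranked above Grm5 (10.1). The class medians of the percentile lay between 6.17 (TCF7L2, E15.5) and 11.0 (FOXP1, E15.5).

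Grm3 and Grm4, which dampen transmitter release through inhibitory G proteins, had promoter peaks in part of the lists. Grm3 lacked only a TCF7L2 peak at E15.5, with 3.39 for ARID1B and 5.82 for FOXP1 at that stage and 3.23, 4.97 and 3.61 at E18.5. Grm4 lacked TCF7L2 at E15.5 and ARID1B at E18.5, with 2.5 for ARID1B and 4.56 for FOXP1 at E15.5, and at E18.5 a FOXP1 peak of 3.94 and a TCF7L2 peak of 3.39. In both missing lists, a peak of Grm4 lay 373 to 392 bp downstream of a TSS.

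Of the 11 alpha, beta and gamma subunits of the GABA-A receptor, 6 were bound in all 6 lists. Gabra5, whose receptors lie mostly outside synapses, had the lowest median of the class (3.67), with 3.57, 3.67 and 3.47 at E15.5, and at E18.5 no ARID1B peak, a FOXP1 value of 4.97 and a TCF7L2 value of 3.94. It was not the lowest by median percentile (8.48), where Gabrg1 had 7.62.

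Gabra4 and Gabrb1 face away from each other and shared a promoter peak in 5 lists, with 3.57, 6.08 and 4.10 at E15.5 and 4.07 for ARID1B and 4.71 for TCF7L2 at E18.5. These counts are therefore not independent. A further TSS of Gabrb1 had an ARID1B peak of the same fold enrichment (4.07) at E18.5. In the FOXP1 list at E18.5, the only Gabrb1 peak (5.41) lay at that further TSS and was not counted for Gabra4.

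Gabrg1, a gamma subunit, lacked a TCF7L2 promoter peak at E15.5 and a FOXP1 peak at E18.5. It had 3.84 for ARID1B and 3.92 for FOXP1 at E15.5, and 3.79 for ARID1B and 2.85 for TCF7L2 at E18.5.

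GABA-B receptors are obligate pairs of the subunits of Gabbr1 and Gabbr2, and both genes were bound in all 6 lists. Gabbr1 ranked next after Gria2 among all members (median 7.66, median percentile 67.7), with 6.68, 9.87 and 7.65 at E15.5, followed by 6.03, 10.1 and 7.66 at E18.5 for ARID1B, FOXP1 and TCF7L2. Gabbr2 had 2.95, 6.58 and 4.94 at E15.5, followed by 4.21, 7.03 and 4.49 at E18.5. The ARID1B value at E15.5 came from a peak of 200 bp at a non-coding Gabbr2 transcript, over 300 kb from the start where the other 5 summits lay. Gabbr1 was the higher of both in every list. The plot of promoter fold enrichment by gene and list gives 38 of the members.

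**Figure D2:**
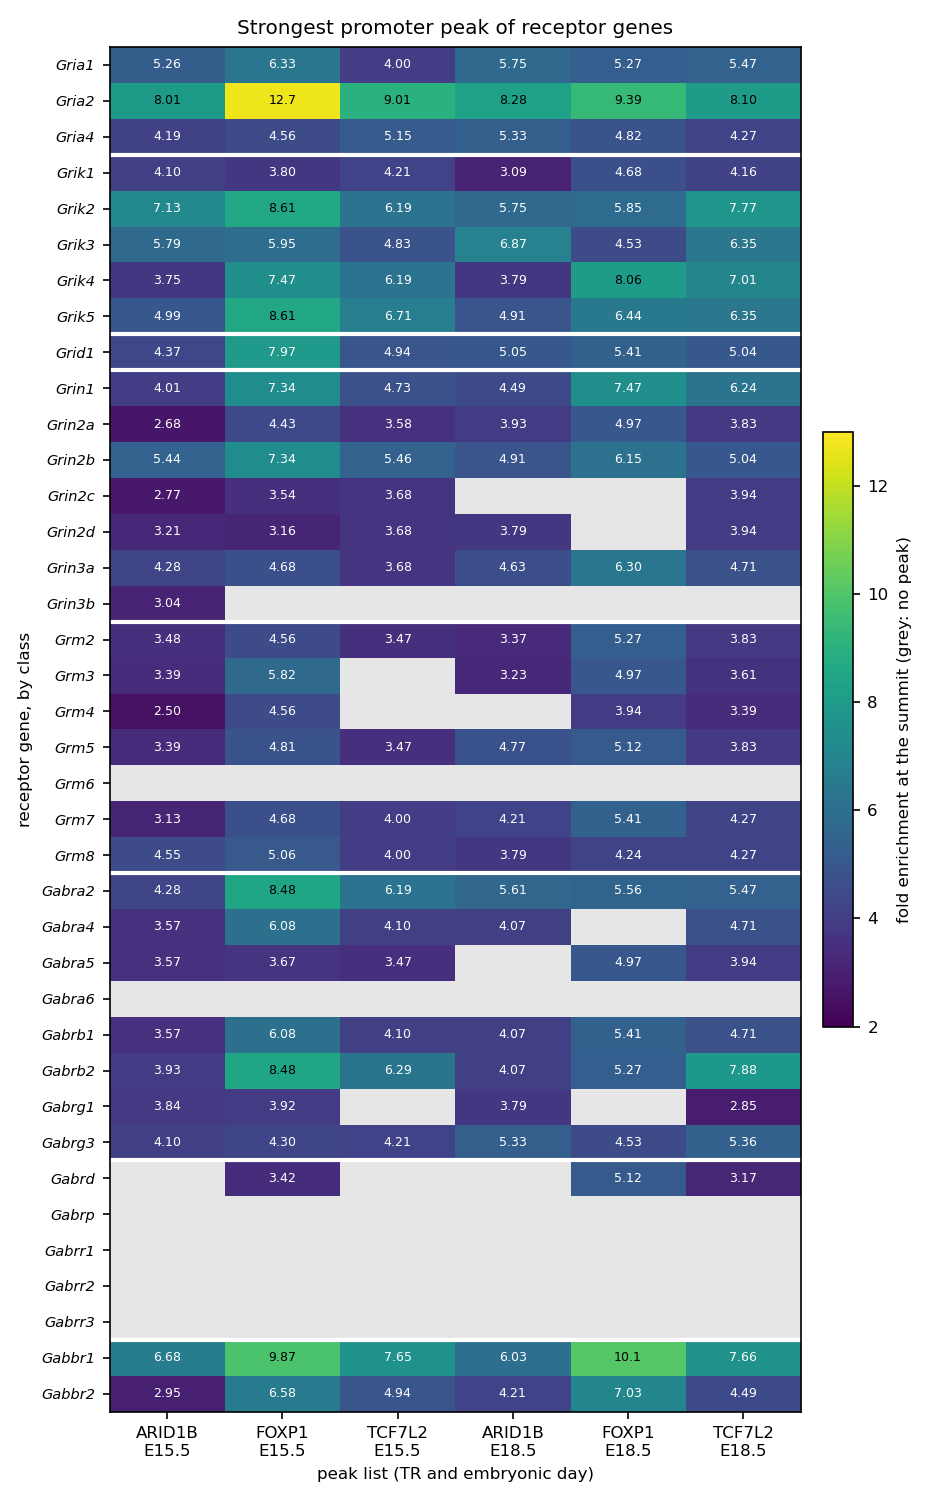
Fold enrichment at the summit of the strongest promoter peak of 38 receptor genes (rows, grouped by class) in 6 peak lists of 3 TRs at 2 stages (columns), with grey where no peak was called. Gria2 (8.01 to 12.7) and Gabbr1 (6.03 to 10.1) stand highest, and Grm6, Gabra6, Gabrp and the 3 rho subunit genes are grey throughout.

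The 6 genes without a promoter peak in any list were Grm6, Gabra6, Gabrp and the rho subunit genes Gabrr1, Gabrr2 and Gabrr3. Their nearest peaks mostly lay far away or at other genes. For Gabra6, the nearest peaks of the 6 lists lay 98595 to 99080 bp upstream, at the start of Gabrb2. For Grm6, which receives rod and cone signals in retinal bipolar cells, they lay 8817 to 8990 bp upstream in all 6 lists. Gabrp, whose product is found mostly in peripheral tissues, had its nearest peaks 35209 to 65127 bp away.

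The rho genes had a few peaks in their bodies. Gabrr2 had an ARID1B peak 5834 bp downstream of a TSS at E15.5 (5.08) and 5783 bp downstream at E18.5 (6.31), and a TCF7L2 peak 6004 bp downstream at E18.5 (2.96). Gabrr3 had a FOXP1 peak 13614 bp downstream at E15.5 (3.67). The nearest peak of Gabrr1 in any list lay 13135 bp upstream (FOXP1, E15.5, 4.18). Gabrd, the delta subunit of receptors outside synapses, was the only bound gene of this class, with a FOXP1 peak in both lists (3.42, then 5.12 at the later stage) and a TCF7L2 peak of 3.17 at E18.5. An ARID1B peak of 3.04 at E15.5 began 3 bp downstream of a Gabrd TSS.

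CpG content at the start was low in all 6 unbound genes. The measure was CpG observed over expected in the 250 bases before and 50 after each start of a protein-coding transcript, and the highest value was taken for each gene. The median was 0.756 in the 26 receptor genes bound in all 6 lists, 0.566 in the 11 bound in 1 to 5 lists and 0.264 in the 6 bound in none. Across all genes, the median was 0.860 for those bound in all 6 lists and 0.207 for those bound in none. Across the 43 receptor genes, the Spearman correlation of CpG content and the number of lists with a promoter peak was 0.53, as a description over genes that share the same libraries.

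Of 25 receptor genes with a value of at least 0.6, 20 were bound in all 6 lists (80.0%), beside 86.0% of all such genes, and 0 in no list, beside 3.84%. Of the 18 below 0.6, 6 were bound in no list (33.3%), beside 71.7% of all such genes. CpG-poor receptor genes with promoter peaks in all 6 lists were Gria1 (0.463), Grik5 (0.364), Grin2b (0.582), Grm5 (0.569), Grm7 (0.455) and Grm8 (0.541). Of the receptor genes bound in all 6 lists, 76.9% had a value of at least 0.6, beside 88.0% of all genes so bound. Among the 37 receptor genes with a promoter peak, the correlation of CpG content with the median fold enrichment was 0.29.

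**Figure D3:**
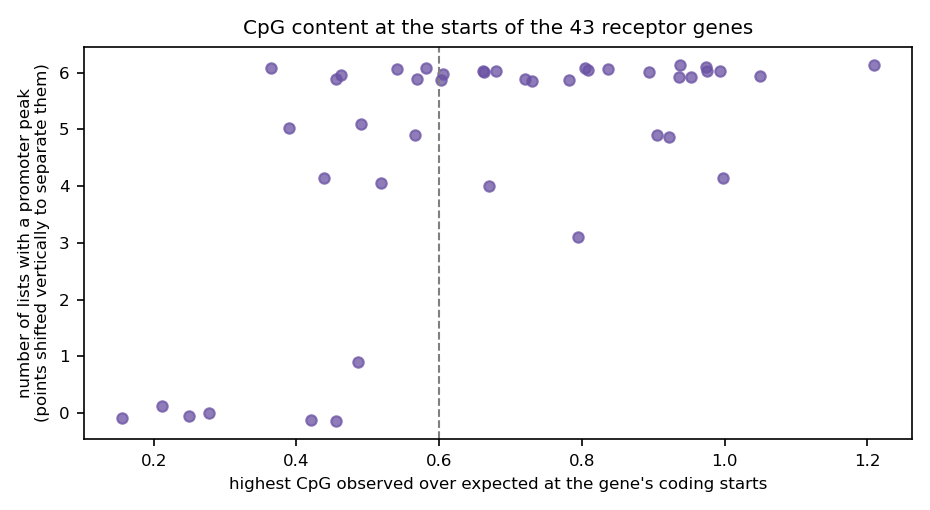
Number of the 6 peak lists in which a receptor gene had a promoter peak (vertical, points shifted slightly) against its highest CpG observed over expected at starts of protein-coding transcripts (horizontal). All 6 genes without a promoter peak lie left of the dashed line at 0.6, between 0.155 and 0.455.

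Short motifs were counted on both strands of the same 300-base windows, and any window of a gene could hold them. Receptor genes had a median of 3 coding starts and all genes 2, so receptor genes had more windows. GGGCGG, part of the GC box, was found at 27 of the 43 receptor genes (62.8%) and 54.1% of all genes. The forkhead motif TGTTTAC was found at 2 receptor genes (4.65%), beside 5.88%, and both (Gabrr1 and Gabrr2) were without a promoter peak. The TCF motif ATCAAAG was found at 8 (18.6%), 2 of them (Gabrp and Gabrr2) without a promoter peak, beside 6.14% of all genes, and the E-box CATCTG at 8 (18.6%), beside 26.2%. The REST-NRSF consensus with up to 4 mismatches was found at Gria2 alone, beside 0.405% of all genes, and the NRF consensus with up to 1 mismatch at Gabrb1 and Gabrb2, beside 7.18%.

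Most summits of the receptor genes' promoter peaks lay close to a start, which is partly given by choosing peaks that overlap a promoter. Neither the distances nor the shared bases below were counted over all genes. Within 500 bp of a TSS lay 28 of 35 ARID1B summits, 31 of 36 FOXP1 summits and 28 of 30 TCF7L2 summits at E15.5, and 29 of 32, 26 of 32 and 32 of 36 at E18.5. At 20 of the 26 genes bound in all 6 lists, at least 1 base was shared by all 6 peaks. The 6 summits of a gene spanned a median of 306 bp, but over 1000 bp at 4 genes (Gabbr2, Gabrb1, Grin1 and Grin2b). At Gabbr2, Gabrb1 and Grin1, the strongest peaks of different lists lay at different TSSs.

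Some receptor promoters were called at 1 stage only. ARID1B had 4 genes (9.30%) with a promoter peak at E15.5 only (Grin2c, Grin3b, Grm4 and Gabra5), beside 2.60% of all genes, and 1 (2.33%) at E18.5 only, beside 1.16%. FOXP1 had 4 (9.30%) at E15.5 only (Grin2c, Grin2d, Gabra4 and Gabrg1), beside 6.78%, and 0 at E18.5 only, beside 0.0769%. TCF7L2 had 0 at E15.5 only, beside 0.317%, and 6 (14%) at E18.5 only (among them Grm3, Grm4, Gabrg1 and Gabrd), beside 4.14%. The fold enrichments of these 6 TCF7L2 peaks were 2.85 to 3.61, near the lowest of the list (2.41). Depth moved with the stage in the same direction as the number of promoters called. The smaller of the ChIP and input read sets behind a list held an estimated 60.1 M reads for TCF7L2 at E15.5 and 76.1 M at E18.5, and 64.5 and 26.3 M for FOXP1. Its part in the stage differences was not tested.

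Receptor genes were long, and most of their peaks lay in gene bodies. The median span was 138 kb, beside 17.6 kb over all genes, and 24 of the 43 receptor genes spanned at least 100 kb. A gene body peak overlapped the span of the gene and none of its own promoters. ARID1B had body peaks in 33 receptor genes at each stage, beside 34.3% of all genes at the earlier and 34.0% at the later. FOXP1 had them in 29 genes at E15.5, beside 35.0%, and in 22 at E18.5, beside 18.7%. TCF7L2 had them in 23 at E15.5, beside 23.5%, and in 26 at E18.5, beside 32.6%. Longer genes had body peaks more often, and of all genes of at least 100 kb, 57.6% (FOXP1, E18.5) to 89.8% (ARID1B, E15.5) had a body peak, beside 17 and 23 of the 24 receptor genes of that length.

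Pooled over all their length, receptor genes held fewer peaks than other genes. The 256 ARID1B body peaks at E15.5 came to 2.14 per 100 kb of receptor gene, beside 2.98 over all genes and 3.36 over the 2372 genes of at least 100 kb. For FOXP1 at E15.5, 175 peaks came to 1.46 per 100 kb, beside 2.56 and 2.65, and for TCF7L2 69 peaks came to 0.576, beside 1.13 and 0.949. At E18.5, 238 ARID1B peaks came to 1.99, beside 2.86 and 3.19, 52 FOXP1 peaks to 0.434, beside 0.657 and 0.565, and 118 TCF7L2 peaks to 0.985, beside 2.18 and 1.94. The pooled density was thus lower in receptor genes in each of the 6 lists against both backgrounds. The median density per gene went the other way against all genes, where it was 0 in every list, and was 0.131 to 1.95 per 100 kb in receptor genes. Among genes of at least 100 kb, the median per receptor gene was below that of all such genes, for example 1.98 beside 2.47 (ARID1B, E15.5), but nearly equal for FOXP1 at E18.5 (0.354 beside 0.357). Peaks in the overlap of a pair of members were counted for both genes.

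**Figure D4:**
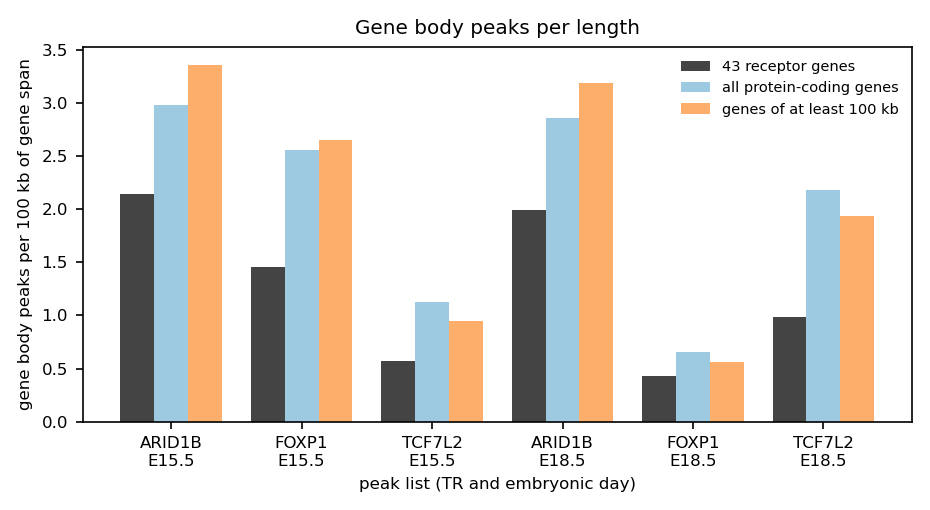
Gene body peaks per 100 kb of gene span, pooled over the genes of each set (vertical), in the 6 peak lists, for the 43 receptor genes, all protein-coding genes on chromosomes 1 to 19 and genes of at least 100 kb. The bar of the receptor genes is the lowest of each group, for example 2.14 beside 2.98 and 3.36 for ARID1B at E15.5.

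The classes differed in body peaks. Kainate receptor genes (1801 kb in all) held 4.22 and 4.05 ARID1B peaks per 100 kb at the earlier and later stage, GABA-B receptor genes (359 kb) 4.18 and 5.02, and metabotropic receptor genes (3096 kb) 1.26 and 1.1. Grik3 (82) and Grik4 (81) were among the 3 members with the most body peaks over the 6 lists together. Counts are given in the order ARID1B, FOXP1 and TCF7L2. Grik3 had 18, 18 and 11 at E15.5, followed by 19, 1 and 15 at E18.5. Grik4 had 20, 14 and 6 at E15.5, followed by 20, 5 and 16 at E18.5.

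The densest genes were shorter. Grin2d held an average of 10.0 body peaks per 100 kb and list, Grin2c 8.30 and Grm4 6.56. Grin2d had 4 peaks for each TR at E15.5, followed by 5, 3 and 8 at E18.5 in the same order. Grin2c had 1, 2 and 2 at E15.5, followed by 1, 1 and 2 at E18.5 in 18.1 kb. Grm4 had 7, 6 and 6 at E15.5, followed by 6, 4 and 10 at E18.5, and 3 of its loci were bound in all 6 lists, with the strongest summit of 1 of them 624 bp after a TSS. No body peak was found in 6 genes, among them Grm6, Gabra6, Gabrg1, Gabrp and Gabrr1.

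Overlapping body peaks of the 6 lists formed 355 loci in 37 receptor genes. The strongest summit lay in an intron at 319 loci, in a coding exon at 19, in a non-coding part of an exon at 16 and beyond the end of Grik5 at 1. A single list held the peak at 137 loci, and all 6 lists at 23 loci in 14 genes. At 140 loci, only ARID1B had a peak, beside 40 with only FOXP1 and 26 with only TCF7L2. The ARID1B lists are also the longest (67787 and 70709 peaks on chromosomes 1 to 19, beside 24526 to 63281 in the others), and the same counts over the loci of all genes were not made. All 3 TRs met at 51 loci at E15.5 and at 27 at E18.5. At 6 loci, the peaks also overlapped a promoter of another protein-coding gene.

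The body peaks of ARID1B were often higher than its promoter peaks at the same gene. Of 30 receptor genes with both kinds of ARID1B peak at E15.5, the strongest body peak exceeded the strongest promoter peak at 24 (80.0%), beside 42.8% of all genes with both. At E18.5, this held for 22 of 29 (75.9%), beside 42.3%. FOXP1 had 13 of 27 at E15.5, beside 18.8%, and 9 of 20 at E18.5, beside 22.0%. TCF7L2 had 8 of 20 at E15.5, beside 22.5%, and 10 of 25 at E18.5, beside 18.9%.

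Longer genes have more body peaks from which the highest is taken, and the same comparison was made for genes of at least 100 kb. ARID1B then had 19 of 22 receptor genes at E15.5, beside 66.1% of all such genes, and 19 of 23 at E18.5, beside 65.3%. FOXP1 had 10 of 21, beside 25.0%, and 8 of 17, beside 24.7%. TCF7L2 had 6 of 15, beside 25.9%, and 7 of 19, beside 23.6%. The share was higher among receptor genes in each of the 6 lists. A low promoter peak also raises this share, and receptor promoters had a lower median fold enrichment than all bound promoters in each list. What part this had was not tested, and the fold enrichments of body peaks were not set beside those of all genes.

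**Figure D5:**
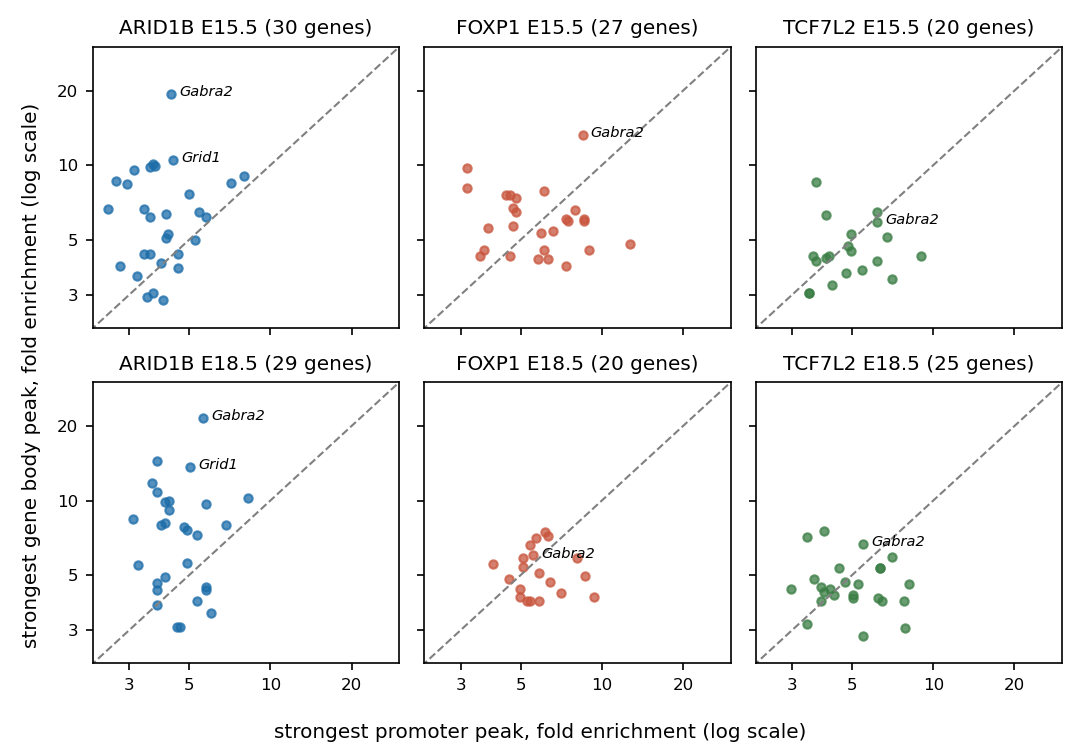
Fold enrichment of the strongest gene body peak (vertical, log scale) against that of the strongest promoter peak (horizontal, log scale) for each receptor gene with both, in 6 peak lists of 3 TRs at 2 stages. Points above the dashed line of equality number 24 of 30 for ARID1B at E15.5 and 8 of 20 for TCF7L2 at E15.5, and Gabra2 stands highest for ARID1B (19.4 and 21.5).

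An intron of Gabra2, an alpha subunit of synaptic GABA-A receptors, held the highest peak of any receptor gene (chr5:70995412-70996311). ARID1B reached 19.4 (E15.5) and 21.5 (E18.5), beside 4.28 and 5.61 at the Gabra2 promoter. These were ranks 33 of 70709 and 46 of 67787 among all ARID1B peaks of chromosomes 1 to 19. FOXP1 reached 13.3 and 6.0 in the intron, beside 8.48 and 5.56 at the promoter, and TCF7L2 5.88 and 6.68, beside 6.19 and 5.47. The strongest summit lay 17896 bp downstream of the nearest TSS of Gabra2. The 200 bases printed above hold the E-box CATCTG on 1 strand or the other and none of the other 3 short motifs.

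A further intron locus of Gabra2 (chr5:71010795-71012098) had 11.0 and 12.6 for ARID1B, 7.34 and 5.71 for FOXP1 and 3.37 and 3.72 for TCF7L2, the earlier stage first. In Grid1, an intron locus (chr14:34944330-34945204) had 10.5 and 13.7 for ARID1B, 6.58 and 3.94 for FOXP1 and 4.73 and 3.94 for TCF7L2. Values of different antibodies are not on a common scale.

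In 200 bases around each body summit, the E-box CATCTG was found at 34.6% of the receptor genes' ARID1B peaks (E15.5) and 37.7% (E18.5), beside 33.0% and 32.1% of all body peaks of the list. For FOXP1, TGTTTAC was found at 1.74% and 4.00% of the receptor genes' peaks, beside 3.14% and 3.08%. For TCF7L2, ATCAAAG was found at 4.35% and 4.24%, beside 2.51% and 2.82%. The FOXP1 shares rest on 3 of 172 and 2 of 50 receptor peaks, and the TCF7L2 shares on 3 of 69 and 5 of 118.

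Genes whose products work with the receptors were counted from lists of partners. All 17 genes of the excitatory postsynaptic scaffold had promoter peaks in all 6 lists, with Dlg4 highest (median fold enrichment 12.3), and the counts of these lists stand beside 53.9% of all genes. Of 13 inhibitory postsynaptic and GABA receptor partners, 12 did, with Clptm1 highest (12.2). Of 11 accessory subunits of AMPA receptors, 7 did, with Cnih2 highest (7.32), and both accessory subunits of kainate receptors did, with Neto2 highest (7.83). The medians over all values were 6.40 for the excitatory and 6.59 for the inhibitory scaffold.

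Glutamate synthesis and transport genes were bound in all 6 lists at 8 of 11, with Glul highest (9.81) and Slc17a8 in no list. GABA synthesis and transport genes were bound in all 6 lists at 3 of 8, with Abat highest (6.94) and the transporters Slc6a12 and Slc6a13 in no list. Of 28 other ligand-gated ion channels, 7 were bound in all 6 lists, with P2rx3 highest (10.1), and 15 in none. Over all genes, 53.9% were bound in all 6 lists and 34.3% in none. Those in none were Glra1, Glra3, Chrna1, Chrna2, Chrna6, Chrna9, Chrna10, Chrnb3, Chrnb4, Chrnd, Chrng, Htr3b, P2rx1, P2rx5 and P2rx7.

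Of 11 markers of cortical projection neurons and progenitors, 9 had promoter peaks in all 6 lists and none lacked peaks throughout, with Neurod2 highest (9.51). Of 6 interneuron markers, 2 were bound in all 6 lists, with Dlx1 highest (5.56), and Sst in none. Endothelial and microglial markers were bound in all 6 lists at 0 of 8, and 6 (Aif1, Cldn5, Csf1r, Cx3cr1, P2ry12 and Pecam1) had no peak in any list, with Kdr highest (3.87). The 6 liver markers (Afp, Alb, Apoa2, Cyp7a1, Fgb and Serpina1a) had no promoter peak in any list. The marker counts stand beside 53.9% of all genes bound in all 6 lists and 34.3% bound in none.

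Of the receptor genes, 4 stand in the list of autism-associated genes that the study used, among them Gria2, Grin2b and Gabrb2. All 4 had promoter peaks of the 3 TRs at both stages, as did 53.9% of all protein-coding genes. The median fold enrichments of these named genes were 8.64, 5.45 and 5.78, with median percentiles of 80.4, 28.3 and 25.1.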

How the data were processed

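Of the 24 libraries, the deposited files are 1 peak list for each TR and stage. Per the study's methods, the authors aligned 50 bp reads to GRCm38 with bwa mem 0.7.15, kept alignments with a mapping quality of at least 30 and called peaks with MACS2 against input, again after merging replicates (q of 0.01, constant background, extension to 200 bp). The lists were taken to come from merged replicates, which the files do not state. The deposited lists hold the fold enrichment (a ratio) and the −log10 of the p-value and q-value at each summit, with a score and the summit's offset, as the authors' caller gave them. The score was not used. Depth was recovered from the pairs of fold enrichment and −log10 p, which fit a Poisson model with 1 background per list within 0.01 (100% of pairs). The background was 2.81 reads over a point for FOXP1 at E18.5 and 6.13 to 8.63 in the other lists, and the lists held 24890 to 71442 peaks.

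Peaks were set against GENCODE vM21 transcripts in Python 3.11.15, by an overlap of at least 1 base with the 2000 bp upstream of any TSS or with the gene span. Counts of receptor genes stand beside the share of all protein-coding genes on chromosomes 1 to 19. Overlaps and the recovery of depth were checked on simulated data. RefSeq start sequences were matched by symbol for 29 of the 43 genes, and those of Gria1, Grik1, Grid1, Grin2a, Grin2b, Grin3a, Grm4, Grm5 and Gabrd were among those not matched. CpG content and motifs were read from the GRCm38 genome for all genes.

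Named genes were, in each class, those with the highest and lowest median fold enrichment, all with a promoter peak in 0 to 5 lists, and the 3 with the most body peaks in number and per 100 kb. Values of 5 members that the rule or a count would name are not reported here, although all counts and medians include them. The 6-list body loci with the highest values, Grik4, Grik5, Grin2b and the autism-associated genes were named after their values were seen. The receptor genes and partner lists were chosen with earlier results of these data known. The comparison of body with promoter peaks, the CpG limit of 0.6, the shares of all genes at a −log10 p of at least 15, the motifs at body peaks and the choice of exon-free sequences were added after values were seen. The ChIP of BCL11A and TBR1, human tissue and ATAC-seq were not analysed here.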

Additional observations from a re-analysis of the deposited data

How the results depend on the processing

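No paired analysis was possible because there is 1 peak list for each TR and stage, taken to come from merged replicates, and for the same reason no replicate could be left out. Of 126 recomputed values, 94 stayed within 1.5 times the reported count or within the 95% order-statistic interval of the reported median, among them all values with 1000 bp upstream, with 500 bp added downstream, with protein-coding transcripts only, with the summit required in the promoter or the body, and without the first 2000 bp after each TSS. The 32 values that moved came from strong peaks only, where fewer peaks are left by construction. Listed by TR (ARID1B, FOXP1, TCF7L2), the earlier stage first, a −log10 p of at least 15 left promoter peaks at 10, 23, 12, 12, 6 and 20 receptor genes, peaks of all 3 TRs at 7 (E15.5) and 3 (E18.5), in all 6 lists at 3 and in none at 17. It left 96, 45, 9, 78, 5 and 20 body peaks, and genes with a body peak numbered 19 and 8 (FOXP1 and TCF7L2, E15.5) and 5 and 12 (E18.5). With lists shortened to 24890 peaks, promoter peaks remained at 8 and 21 genes (ARID1B and FOXP1, E15.5) and 12 (ARID1B, E18.5), peaks of all 3 TRs at 8 and 12, and in all 6 lists at 7. Body peaks were 82, 43 and 39 at E15.5 and 78 (ARID1B) and 48 (TCF7L2) at E18.5, and 19 genes held a FOXP1 body peak at E15.5. The share of all genes was not computed for the shortened lists, nor for body peaks among strong peaks only. Whether receptor promoters are bound more often than all promoters at equal list length was therefore not tested.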

Other observations

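The receptor genes of the X chromosome, Gria3, Gabra3, Gabre and Gabrq, lie outside the autosomal set. None of the 4 had a promoter peak in any of the 6 lists, while 388 of the 948 protein-coding genes of the X chromosome (40.9%) had one in at least 1 list. Gria3, an AMPA receptor subunit of cortical neurons, had 3 ARID1B body peaks and 1 FOXP1 body peak at E15.5 and 2 ARID1B body peaks at E18.5 in its 278 kb. Gabra3, an alpha subunit of the GABA-A receptor, had 1 ARID1B body peak at each stage in its 224 kb. Gabre and Gabrq had no body peak in any list.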
